A study of Mus musculus with 6 samples.

Results

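The cytosolic ribosomal proteins are the protein components of the ribosomes that translate nuclear messages. They were taken as all genes whose own probe sets, named with a single symbol by the platform annotation, carry the symbols Rps or Rpl followed by a number, or *Rpsa*, *Rplp0*, *Rplp1* or *Rplp2*. The Rps6k kinases, *Rps19bp1* and pseudogenes named as such were left out, and of a gene's probe sets the one with the highest mean signal over the 6 arrays stood for it. This gave 62 of 19938 genes on the arrays. Of the 77 usual ribosomal protein symbols listed here, 54 were among them, 16 had only probe sets shared with other symbols and 7 were named by no probe set. The other 8 genes were paralogs or copies (*Rpl3l*, *Rpl7l1*, *Rpl10l*, *Rpl32l*, *Rpl39l*, *Rps4l*, *Rps23rg1* and *Rps27l*). The label held for most members, although *Rps23rg1* is a retroposed copy of *Rps23* and RefSeq lists *Rps4l* as a transcribed pseudogene.

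The samples were villi of the whole intestine of 5-day-old littermate mice, 3 *Trpm7 fl/fl* controls and 3 *Trpm7 fl/fl;Villin1-Cre* mutants (*Trpm7*-intestine KO), on 1 Affymetrix whole-transcript array each. Both genotypes carry the floxed *Trpm7* allele, and the controls are described without the Cre transgene. The labels give the background as C57BL/6, whereas the methods name it (as C57BL/6J) for the Villin1-Cre line and another strain for the floxed line. Villin1-Cre deletes in the epithelium of the whole intestine, so other villus cells keep the gene. Values are log2 signals, in which a difference of 1 is a 2-fold change. The *Trpm7* signal was 9.03 ± 0.08 in control and 7.90 ± 0.12 in mutant villi (SD, n = 3 each), and its mean fell by 1.13. Whether that probe set lies in the deleted part was not known here. All 12 enterocyte markers had mean signals of 10.4 or more, against array medians from 6.24 to 6.3. In villi as a bulk sample, fewer cells of a type and less RNA per cell cannot be told apart. Nothing in the labels says whether each array came from 1 mouse, so p-values measure the spread between these samples.

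A ribosome joins a small subunit, which reads the message, to a large subunit, which forms the peptide bonds and is fed with elongation factors by its lateral stalk. Each subunit is assembled in the nucleolus from ribosomal RNA and ribosomal proteins by many assembly factors that do not stay on the finished particle. Ribosomal protein messages are abundant in most cells. In mammals they start with a C followed by a run of pyrimidines, the 5′ terminal oligopyrimidine (TOP) motif, through which mTOR and LARP1 control their translation. This control acts on translation, which arrays do not measure. Ribosomal protein genes also have many near-identical processed copies in the mouse genome, so a probe set can collect signal from copies as well as from the parent gene.

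Start-site sequence was available in the RefSeq promoter table (GRCm38.p6) for 50 of the 62 genes, in 59 entries. The sequences below are of called genes with an entry, to show what their starts look like, and of *Rps6*, *Rps18*, *Rpl4* and *Rpl27a* as long pyrimidine runs of genes that were not called. Each is a window of 30 bases on the transcribed strand, and the capitals mark the longest run of C and T that begins with C between 25 bases before and 50 bases after the listed start.
Rps2: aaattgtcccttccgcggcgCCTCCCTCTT (chr17:24720083-24720112, plus strand)
Rpsa: ccggccgcccgtCCTTTCgcgctacccggg (chr9:120127775-120127804, plus strand)
Rplp0: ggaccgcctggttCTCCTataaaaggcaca (chr5:115559467-115559496, plus strand)
Rpl28: cctctcgtgtCTCTCTTTCCgtctccggcc (chr7:4792953-4792982, plus strand)
Rps23rg1: ttgcagagagtCTTTCTCTCaccccagata (chr8:3567986-3568015, plus strand)
Rps6: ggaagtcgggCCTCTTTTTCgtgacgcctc (chr4:86857349-86857378, minus strand)
Rps18: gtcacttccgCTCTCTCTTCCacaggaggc (chr17:33955648-33955677, minus strand)
Rpl4: gagcgtggCCTTCTCCTCTCCCCgtcatgg (chr9:64173405-64173434, plus strand)
Rpl27a: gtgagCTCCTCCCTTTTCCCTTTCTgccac (chr7:109519186-109519215, plus strand)

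A run of 8 bases or more was found in an entry of 37 of the 50 genes (74%), against 24.3% of 27025 genes in the same table. The windows of *Rplp0* and *Rpsa* hold shorter runs of 5 and 6 bases, and the run of *Rps2* reaches the last base of its entry, so its full length was not seen. The listed start can lie upstream of the start that is used, and a run in the window is a match of letters rather than a mapped TOP motif. The 7 letters CCGGAAG, as in sites of ETS factors, occurred on either strand of 19 of the 50 genes (38%), against 9.93% of all genes. The YY1-type letters AAGATGGC occurred in 3 of the 50 (6%, against 3.19%) and the letters TATAAA in 6 (12%, against 15.7%), both searched on either strand. Read on the opposite strand, CCGGAAG is CTTCCGG, which begins with pyrimidines and can overlap a pyrimidine run.

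Ribosomal protein transcripts differed little between the genotypes. Limma, with p-values adjusted by Benjamini-Hochberg across the 30177 probe sets, called 3 of the 62 genes higher in mutant villi (*Rps2*, *Rpl8* and *Rpsa*) and 3 lower (*Rplp0*, *Rpl28* and *Rps23rg1*), at an adjusted p of 0.05 or less. This is 4.84% in each direction, against 8.04% of all probe sets called higher and 8.82% called lower. None of the 62 changed 2-fold, against 2.53% of all probe sets. The difference of means, mutant minus control, ran from −0.35 for *Rplp0* to 0.49 for *Rpl12*, with a median of 0.09, against 0.00 over all probe sets. It was positive for 46 genes, negative for 15 and 0 for *Rpl21*. The 95% intervals of single members, which limma's moderated SE gives, reached from −0.54 for *Rplp0* to 0.83 for *Rpl12* at their ends, so larger changes than these are outside what any single member's interval holds.

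**Figure D1:**
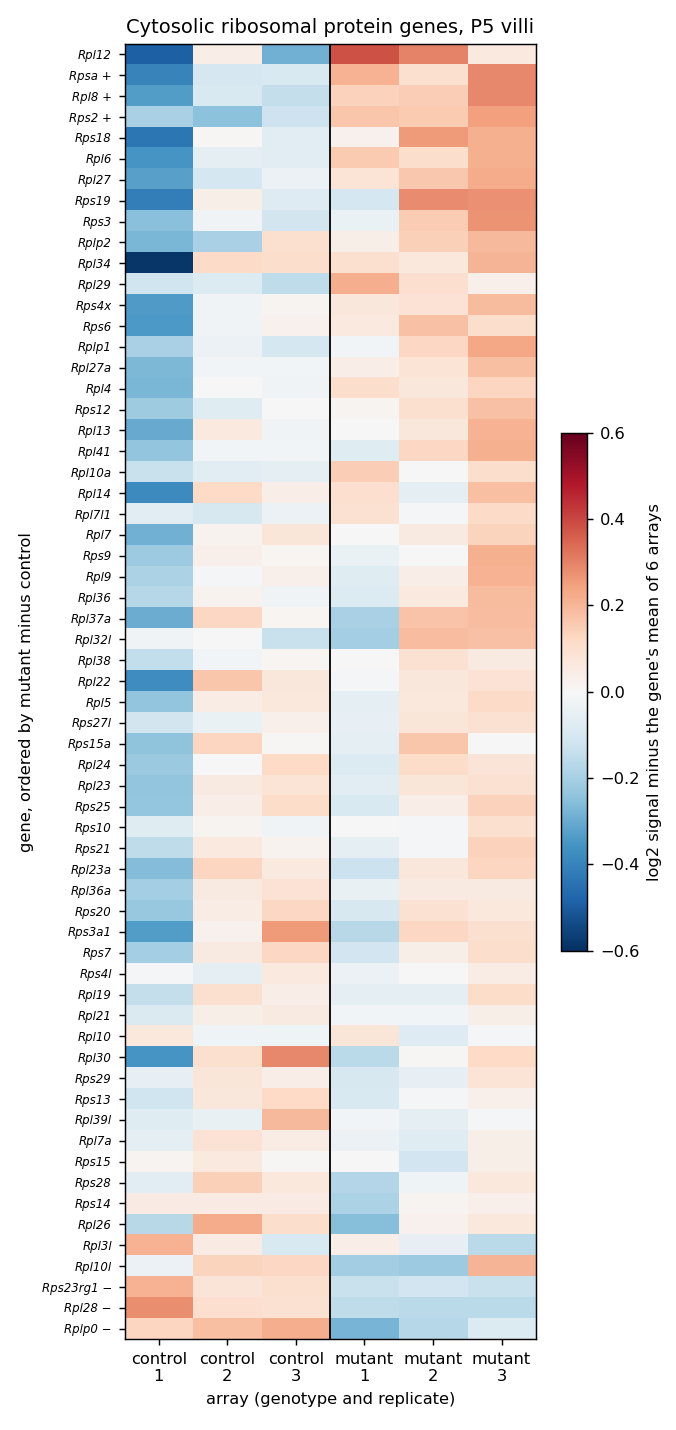
Log2 signal of the 62 ribosomal protein genes on each of the 6 arrays, as the difference from the gene's own mean over the arrays (colour scale), with genes ordered by mutant minus control difference. A plus or minus sign after a name marks the 3 genes called higher and the 3 called lower. The column of control replicate 1 is blue for most genes, and 45 of the 62 were lowest on that array.

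The 3 mutant arrays lay above all 3 control arrays for 16 genes (25.8%, against 16.9% of all probe sets) and below them for 4 (6.45%, against 17.6%). The 4 were the 3 called lower and *Rps14*. At an unadjusted p under 0.05, 13 genes passed (21.0%, against 29.3% of all probe sets). Most ribosomal protein probe sets were bright, with 40 members at a mean signal of 10 or more and 5 below the array medians. Signal also depends on the probes, so it gives no order of transcript abundance between genes. The largest mean signal was that of *Rpl21*, a large subunit protein, which was 12.94 ± 0.08 in control and 12.94 ± 0.03 in mutant villi. Among all probe sets with a mean of 10 or more, 15% were called higher and 15.1% lower. Of the 40 bright members, 3 were called higher (7.5%) and 2 lower (5%). The mutant arrays lay above all controls for 13 of the 40 (32.5%, against 30.8% of the bright probe sets) and below them for 3 (7.5%, against 28.6%).

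**Figure D2:**
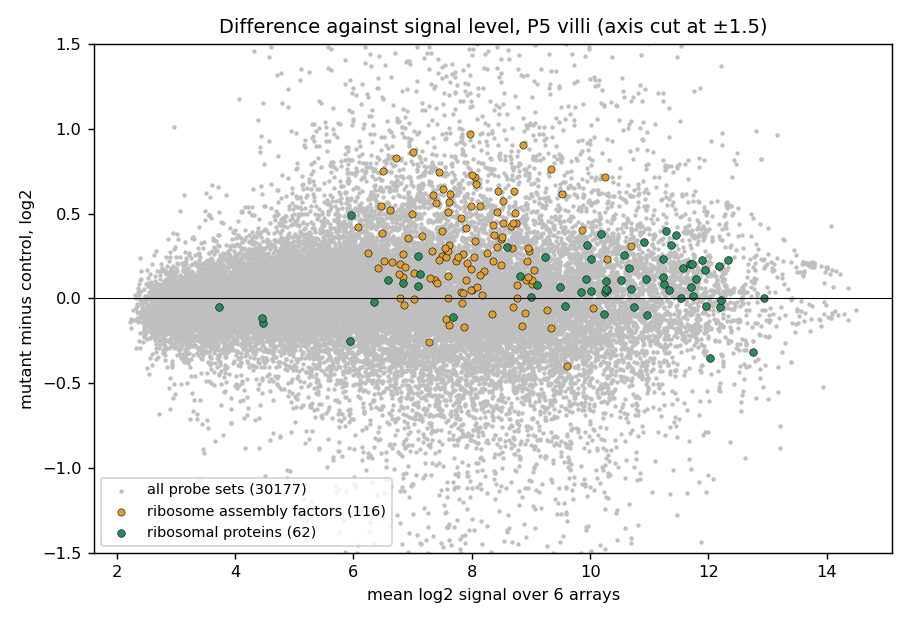
Mutant minus control difference of mean log2 signal against the mean log2 signal over 6 arrays, for all 30177 probe sets (grey), 116 ribosome assembly factors (yellow) and 62 ribosomal proteins (green); the vertical axis is cut at ±1.5. Of the 62 ribosomal proteins, 40 lie at a mean signal of 10 or more, and all differ by −0.35 to 0.49, while the assembly factors at middle signal mostly lie above 0.

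Control replicate 1 stood apart within its group for these genes. It was the lowest of the 6 arrays for 45 of the 62 members (72.6%), against 20.3% of all probe sets. The mean signal over the 62 genes was 9.78 on control replicate 1, 9.99 on control replicates 2 and 3, 9.94 on mutant replicate 1, 10.01 on mutant replicate 2 and 10.08 on mutant replicate 3. The groups overlap, since control replicates 2 and 3 lie above mutant replicate 1. Without control replicate 1 the median difference of the family was 0.01, with 32 genes positive and 30 negative, and only *Rps2* was called higher and only *Rplp0* lower. Control replicates 2 and 3 were also closer to each other than any other pair of one genotype, with an SD of their difference of 0.18 over all probe sets, against 0.24 to 0.28 for the other 5 pairs. Over the 62 genes alone, that SD was 0.099 for control replicates 2 and 3 and 0.098 for mutant replicates 2 and 3. Whether control replicates 2 and 3 share material is not given in the labels. With both averaged into 1 sample, *Rps2* and *Rpl8* were called higher and no member lower.

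Of 31 small subunit proteins, 21 had a probe set of their own. Among these, *Rps2* and *Rpsa* rose (9.52%, against 8.04% of all probe sets) and 19 were not called. None fell, against 8.82% of all probe sets, and the median difference of the 21 was 0.06. *Rps2* is a core protein near the path by which the message enters. Its log2 signal (probe set 10445239) was 11.26, 11.21 and 11.33 in control and 11.62, 11.61 and 11.70 in mutant villi. The groups do not overlap, and all 3 mutant values lie within 0.09 of each other. The mean rose by 0.38 ± 0.07 (SE; adjusted p = 0.0106 from limma), a 1.30-fold change on the linear scale. *Rps2* was the only one of the 6 called members that kept its call under all 17 alternative settings, with differences from 0.33 to 0.41.

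*Rpsa* is a small subunit protein that is also known as a laminin receptor. Its signal (probe set 10373569) was 10.88, 11.18 and 11.19 in control and 11.49, 11.38 and 11.57 in mutant villi. Control replicate 1 is the low value, and the other 2 control arrays still lie below every mutant array. The mean rose by 0.40 ± 0.11 (SE; adjusted p = 0.0371 from limma). Without any 1 of the 6 arrays *Rpsa* was not called, with differences from 0.29 to 0.45 and adjusted p from 0.0550 to 0.103. Its other 4 probe sets gave differences from 0.39 to 0.42, and 2 of them passed the test.

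Among the small subunit genes that did not pass, differences ran from −0.10 for *Rps14* to 0.33 for *Rps18*. *Rps6* is the small subunit protein that S6 kinases phosphorylate downstream of mTOR. Its signal was 11.54, 11.86 and 11.91 in control and 11.94, 12.06 and 11.99 in mutant villi. The groups do not overlap, but control replicates 2 and 3 lie within 0.2 of all mutant values. The difference was 0.23 ± 0.11 (SE; limma's adjusted p = 0.212) and shrank to 0.11 once control replicate 1 was left out. *Rps18*, at the head of the small subunit, gave 10.47, 10.91 and 10.84 in control and 10.93, 11.16 and 11.12 in mutant villi. Its difference was 0.33 (adjusted p = 0.128, limma), and mutant replicate 1 lies only just above control replicate 2. *Rps19*, known for its mutations in Diamond-Blackfan anaemia, differed by 0.30 (adjusted p = 0.223 from limma), with 8.18, 8.63 and 8.52 in control and 8.49, 8.88 and 8.87 in mutant villi. *Rps3*, at the message entry, differed by 0.25 (adjusted p = 0.147 from limma).

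Of the large subunit proteins outside the stalk, 30 had a probe set of their own. Among these, *Rpl8* rose and *Rpl28* fell (3.33% each, against 8.04% and 8.82% of all probe sets). The test was not passed by 28, and the median difference of the 30 was 0.11. *Rpl8* lies close to the site where peptide bonds form. Its signal (probe set 10425018) was 9.85, 10.09 and 10.04 in control and 10.32, 10.33 and 10.47 in mutant villi. All mutant values exceed all control values by 0.2 or more. The mean rose by 0.38 ± 0.09 (SE; adjusted p = 0.0247 from limma). The call was kept without control replicate 2 and lost without any other 1 array, with differences from 0.31 to 0.43 and adjusted p from 0.0415 to 0.0714.

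*Rpl28*, a large subunit protein found in eukaryotes, was the second brightest member. Its signal (probe set 10516275) was 13.03, 12.85 and 12.84 in control and 12.60, 12.59 and 12.59 in mutant villi. Control replicate 1 was the highest array here, against its place as the lowest for most of the family. The mean fell by 0.31 (SE 0.08; adjusted p = 0.0306 from limma). All 5 *Rpl28* probe sets were called lower, with differences from −0.31 to −0.29, but they may measure the same near-identical sequence and are not independent. Without any 1 array the call was lost, with differences from −0.35 to −0.25 and adjusted p from 0.0544 to 0.0899.

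**Figure D3:**
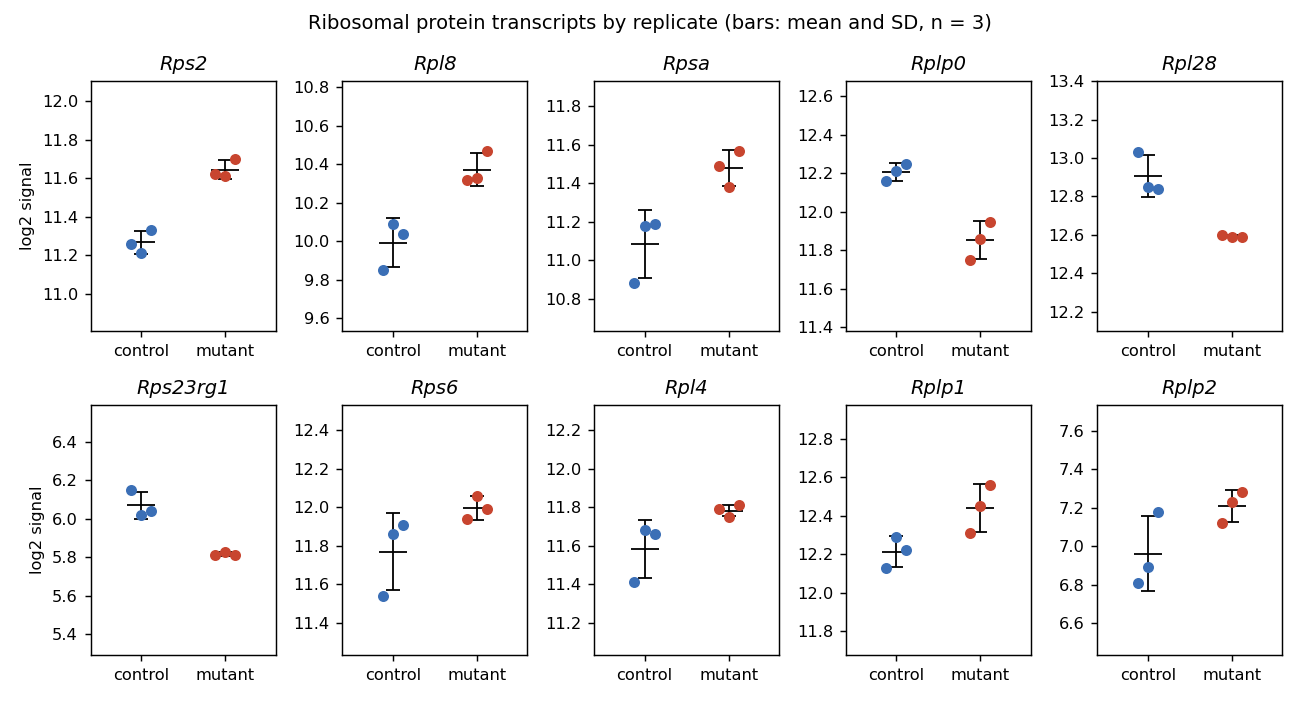
Log2 signal of 10 ribosomal protein genes on each array (points), with the mean and SD (bars, n = 3) of control and mutant villi; each panel spans the same 1.3 log2 units at its own level. *Rps2*, *Rpl8* and *Rpsa* lie higher and *Rplp0*, *Rpl28* and *Rps23rg1* lower in mutant villi, and in *Rps6* and *Rpl4* the low value of control replicate 1 stands apart from the other controls.

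*Rpl12*, a protein near the stalk base, had the largest difference of the family but did not pass the test. It was dim, with 5.47, 6.00 and 5.67 in control and 6.34, 6.26 and 6.02 in mutant villi, so that mutant replicate 3 lies only just above control replicate 2. Its difference was 0.49 ± 0.14 (SE, adjusted p = 0.0540 from limma). A brighter probe set shared by *Rpl12* and *Gm32899*, with a mean of 11.82, differed by 0.18 (adjusted p = 0.365 from limma). The other genes just outside the threshold were *Rpl27* (0.31, adjusted p = 0.0594), *Rpl6* (0.32, adjusted p = 0.0654) and *Rpl29* (0.23, adjusted p = 0.0824), all from limma. One of the 4 probe sets of *Rpl27* was itself called higher, by 0.33. *Rpl4* lines the exit tunnel of the new peptide. Its signal was 11.41, 11.68 and 11.66 in control and 11.79, 11.75 and 11.81 in mutant villi. The groups do not overlap, and the difference of 0.20 (limma's adjusted p = 0.191) shrank to 0.11 once control replicate 1 was left out. *Rpl5*, which with *Rpl11* and 5S ribosomal RNA can bind MDM2, differed by 0.08 (adjusted p = 0.644 from limma; interval −0.15 to 0.32). *Rpl10*, which joins late in maturation, differed by −0.01 (adjusted p = 0.966 from limma; interval −0.18 to 0.17).

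The stalk proteins did not move together. *Rplp0* forms the base of the stalk, to which *Rplp1* and *Rplp2* bind. The signal of *Rplp0* (probe set 10524718) was 12.16, 12.21 and 12.25 in control and 11.75, 11.86 and 11.95 in mutant villi. Every mutant value lies at least 0.2 below every control value. The mean fell by 0.35 (SE 0.08, adjusted p = 0.0198 from limma), and that of the other *Rplp0* probe set by 0.40 (adjusted p = 0.00722 from limma). The call of the first probe set was lost without control replicate 2 or 3 or mutant replicate 1 or 2, with differences from −0.36 to −0.30 and adjusted p from 0.0627 to 0.0698. *Rplp1* gave 12.13, 12.29 and 12.22 in control and 12.31, 12.45 and 12.56 in mutant villi, a difference of 0.23 (adjusted p = 0.136 from limma). *Rplp2* gave 6.81, 6.89 and 7.18 in control and 7.12, 7.23 and 7.28 in mutant villi, a difference of 0.25 (adjusted p = 0.172 from limma). *Rplp2* passed only without control replicate 3 (0.36, adjusted p = 0.0486). *Rplp0* is often used as a reference transcript for normalization, and here its level differed between the genotypes.

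The paralogs were mostly dim, and none of 6 passed the test, with a median difference of −0.02. *Rpl3l*, the form of striated muscle, had a mean signal of 4.45 and a difference of −0.11. *Rpl10l* and *Rpl39l*, known from testis, had mean signals of 4.48 and 3.73, the latter the lowest of the family, and differences of −0.15 and −0.05. These 3 lie below the array medians, where a difference says little about a transcript. *Rpl7l1* (mean 8.82, difference 0.13) and *Rps27l* (mean 9.10, difference 0.08), known as a p53 target, were brighter, and so was *Rps4l* (mean 8.99, difference 0.01). The parents measured beside them differed by 0.13 for *Rpl7*, −0.01 for *Rpl10* and 0.23 for *Rps4x*, and none passed the test. *Rps23rg1*, outside these lists, was dim as well. Its signal (probe set 10569823) was 6.15, 6.02 and 6.04 in control and 5.81, 5.83 and 5.81 in mutant villi, which do not overlap. It fell by 0.25 (SE 0.07; adjusted p = 0.0470 from limma), and without any 1 array it was not called (adjusted p from 0.0885 to 0.118).

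With the probe set of lowest mean signal in place of the highest, 2 genes were called higher and 3 lower, and the median difference was 0.10. *Rpsa* lost its call (0.39, adjusted p = 0.0878 from limma). The 62 genes had 218 probe sets, of which 39 genes held several and *Rps12* as many as 14, although the 218 held only 206 different sets of values, since 19 shared theirs with another. Of the 218, 8 were called higher and 8 lower (3.67% each, against 8.04% and 8.82% of all probe sets). The median difference of the 218 was 0.11. The 8 higher ones belonged to *Rps2*, *Rpsa*, *Rpl8* and *Rpl27*, and the 8 lower ones to *Rpl28*, *Rplp0* and *Rps23rg1*. Probe sets of one gene repeat much of the same sequence and are no replicates.

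Probe sets that carry a ribosomal protein symbol beside another symbol are outside the 62 genes, and their signal cannot be assigned to either. There were 239, with a median difference of 0.08. Of these, 17 were called higher (7.11%, against 8.04% of all probe sets) and 8 lower (3.35%, against 8.82%). All 17 were the probe sets named *Gm10653* and *Rps2*, whose differences ran from 0.35 to 0.40. The 8 lower ones were 2 each with the symbols *Rpl13a*, *Rpl22l1*, *Rps27* and *Rplp0*. The largest falls were those of *Rpl13a*, the ribosomal protein also known from interferon-dependent silencing of translation. Its brighter probe set, shared with *Zfp526*, gave 12.83, 12.92 and 12.92 in control and 12.09, 12.20 and 12.38 in mutant villi, and fell by 0.67 (adjusted p = 0.00235 from limma). Another, shared with *Gm11478* and *Zfp526*, fell by 0.76 (adjusted p = 6.78e-04). The remaining 2, shared with snoRNA genes, were not called, at −0.35 with *Snord32a* (adjusted p = 0.275) and −0.18 with *Snord34* (adjusted p = 0.659). The called falls are larger than that of any gene of the 62. The probe sets of *Rpl22l1*, a paralog of *Rpl22*, fell by 0.44 and 0.47 (adjusted p from 0.0186 to 0.0314, limma). Those of *Rps27* fell by 0.33 and 0.35 (adjusted p from 0.0348 to 0.04998, limma), so they lie close to the threshold. How these calls depend on single arrays is not given here. Of the 16 usual ribosomal proteins with shared probe sets only, *Rpl13a* and *Rps27* thus had called ones, and the brightest probe sets of the other 14 differed by −0.12 (*Rpl35a*) to 0.27 (*Rpl35*). *Fau*, which encodes a small subunit protein fused to a ubiquitin-like one, differed by −0.09 (adjusted p = 0.499 from limma). *Rack1* had no probe set of its own.

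Genes grouped by their start sequence differed little. The 37 genes with a run of 8 or more had a median difference of 0.11, with 1 called higher and 2 lower, and the 13 with a shorter run had 0.07, with 1 higher and 1 lower. The 19 genes with the ETS-type letters had a median of 0.10, with 2 called higher and none lower, and the 31 without had 0.09, with none higher and 3 lower. *Rpl8* had no entry and is in neither count. Over all probe sets, 8.04% were called higher and 8.82% lower. These are descriptions without a test, and so few called genes do not tie a start sequence to a direction.

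Many factors that assemble ribosomes were higher in mutant villi. Of 116 measured, 49 rose (42.2%, against 8.04% of all probe sets), 1 fell (0.86%, against 8.82%) and 66 did not pass, with a median difference of 0.26. In the list for RNA polymerase I, which transcribes ribosomal RNA, 4 of 13 rose, among them the polymerase subunit *Polr1b* (by 0.56), the nucleolar factor *Tcof1* (by 0.51) and *Taf1d* (by 0.40). In the list for small subunit assembly, 16 of 42 rose and none fell. Its largest rises were those of *Nop56* (0.91, adjusted p = 0.0129), a core protein of box C/D snoRNPs, *Utp20* (0.86, adjusted p = 0.0196) and *Heatr1* (0.64, adjusted p = 0.0137), both of the early processome. In the list for large subunit assembly, 25 of 54 rose and *Rrp1* fell by 0.40. *Rrp1b* (0.83, adjusted p = 6.59e-04), the nucleolar chaperone *Npm1* (0.76, adjusted p = 0.00188) and the remodelling ATPase *Mdn1* (0.75, adjusted p = 0.0418) rose most. In the list for pseudouridine snoRNPs, 4 of 7 rose, led by the pseudouridine synthase *Dkc1* (0.97, adjusted p = 0.00606), *Gar1* (0.67) and *Nolc1* (0.55). All these values are from limma. *Mdn1* lost its call without control replicate 3 or any 1 mutant array (adjusted p up to 0.137), *Taf1d* without control replicate 1 or 2 or mutant replicate 1 or 2 (up to 0.0867) and *Utp20* without mutant replicate 2 or 3 (up to 0.0661). *Dkc1* gave 7.06, 7.72 and 7.65 in control and 8.52, 8.41 and 8.41 in mutant villi. As in the ribosomal proteins, control replicate 1 is the lowest array, but here all control arrays lie below all mutant arrays.

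**Figure D4:**
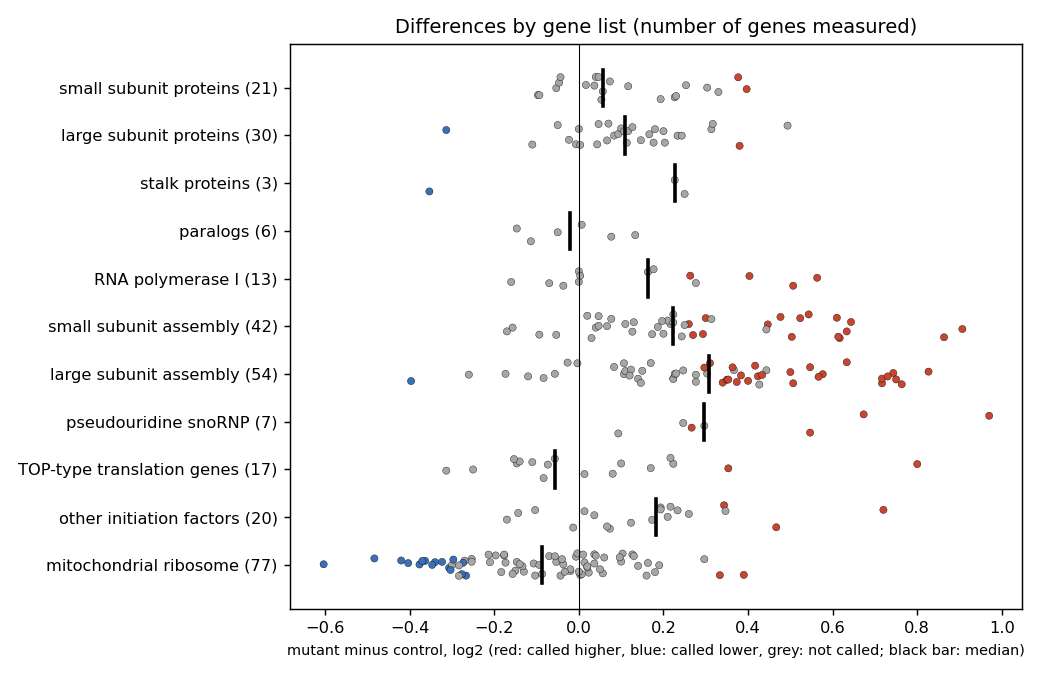
Mutant minus control difference of mean log2 signal for each gene (points) of 11 lists, with the number of genes measured in brackets and the list's median as a black bar; red genes were called higher and blue ones lower. The ribosomal protein lists centre between −0.02 and 0.23 with few called genes, the assembly lists between 0.16 and 0.31 with many called higher, and the mitochondrial list at −0.09 with 16 called lower.

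Without control replicate 1, 34 assembly factors rose and 2 fell, and their median difference was 0.21. That of the ribosomal proteins was 0.01 in the same setting. The median over the assembly factors of the deviation from a gene's mean of 6 arrays was −0.22, −0.08 and −0.09 on the control arrays and 0.13, 0.12 and 0.15 on the mutant arrays, so the groups are apart on every array. Without mutant replicate 1, 2 or 3, the count of rises was 29, 27 and 30. For the ribosomal proteins the same measure was −0.21, 0.03 and 0.03 on the control and −0.04, 0.06 and 0.11 on the mutant arrays, so they are not. Whether the 2 families differ was not tested.

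**Figure D5:**
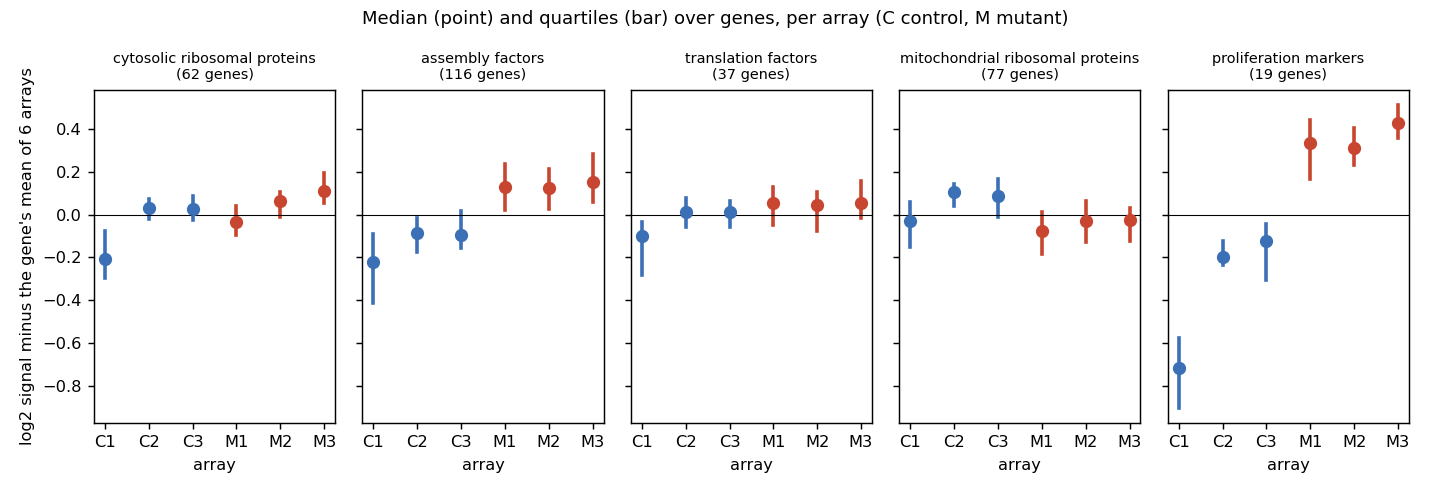
Deviation of log2 signal from each gene's mean of 6 arrays, as the median (point) and quartiles (bar) over the genes of 5 lists, on control (C1 to C3, blue) and mutant (M1 to M3, red) arrays. For ribosomal proteins control replicate 1 lies low at −0.21 and the other arrays lie between −0.04 and 0.11, whereas assembly factors and proliferation markers are lower on every control than on every mutant array.

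Of 37 translation factors measured, 5 rose (13.5%, against 8.04% of all probe sets) and none fell, with a median difference of 0.08. At an unadjusted p under 0.05, 16 passed (43.2%, against 29.3% of all probe sets). Without control replicate 3, mutant replicate 1 or mutant replicate 2, 3 rose. Of 17 genes translated like ribosomal proteins from TOP-type messages, *Nap1l1* (0.80, adjusted p = 0.0112) and *Btf3* (0.35, adjusted p = 0.0207) rose, with a median of −0.06. The elongation factors of this list did not pass, with −0.07 for *Eef1a1* and −0.06 for *Eef2*. Of 20 other initiation factors, 3 rose, namely the exchange factor subunit *Eif2b3* (0.72, adjusted p = 0.00200), *Eif2s2* (0.47) and *Eif3d* (0.34), with a median of 0.18. *Eif3d* lost its call without any 1 array (adjusted p from 0.0551 to 0.0805). *Btf3* lost its call without control replicate 3, mutant replicate 1 or mutant replicate 2 (adjusted p up to 0.0684). Of the hosts of snoRNAs, which guide the modification of ribosomal RNA, *Snhg5* rose by 0.69 (adjusted p = 0.0374), and 1 of 3 measured passed. It lost its call without control replicate 1 or 3 or mutant replicate 2 or 3, with adjusted p up to 0.124. All are from limma.

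Among 18 genes that control growth and ribosome synthesis, 4 rose (22.2%, against 8.04% of all probe sets) and 4 fell (22.2%, against 8.82%). *Myc*, the transcription factor known for driving ribosome synthesis, gave 6.91, 7.70 and 7.62 in control and 9.61, 9.50 and 9.36 in mutant villi, and rose by 2.08 ± 0.20 (SE; adjusted p = 4.54e-04 from limma). It is the only gene of these ribosome-related lists that changed more than 2-fold. Its partner *Max* rose by 0.52. *Eif4ebp1*, the repressor of cap-dependent translation that mTOR inactivates, rose by 0.97 (adjusted p = 2.12e-04), and *Rheb*, the activator of mTOR, by 0.48. The stress-induced mTOR inhibitors *Sesn2* and *Sesn3* fell by 0.70 and 0.39, the mTOR partner *Rptor* by 0.37 and *Tsc1* by 0.37. Without control replicate 2 or 3 or mutant replicate 1 or 2, 1 gene of the list was called lower, *Sesn2*. *Mtor* (−0.03) and *Larp1* (0.11) did not pass. Transcript levels of these genes do not give the activity of mTOR. Free ribosomal proteins are linked to the p53 axis through MDM2. Of 8 measured genes of this axis, *Mdm2* rose by 0.68 (adjusted p = 0.00595 from limma) and 6 did not pass. The p53 target *Ccng1* fell by 0.56 (adjusted p = 0.00144 from limma). This is 12.5% in each direction, against 8.04% of all probe sets called higher and 8.82% called lower.

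The mitochondrial ribosomal proteins are encoded in the nucleus and build the separate ribosome of mitochondria. Of 77 genes, 2 rose (2.60%, against 8.04% of all probe sets) and 16 fell (20.8%, against 8.82%). The test was not passed by 59, and the median difference was −0.09. The largest falls were those of *Mrpl34* (by 0.60, adjusted p = 0.00207), *Mrps30* (by 0.48) and *Mrpl23* (by 0.42). The count of falls depended on single arrays. It was 4 without control replicate 2 or 3, 5 without mutant replicate 1 or 2, 9 without mutant replicate 3 and 11 without control replicate 1, and 5 with control replicates 2 and 3 averaged.

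Markers of dividing cells moved with the same arrays. Of 19 proliferation markers, 14 rose (73.7%, against 8.04% of all probe sets), 5 were not called and none fell. Their median difference was 0.69, and *Rrm2* (1.21), *Ccna2* (1.11) and *Ccnb2* (0.99) rose most. The paper reports the progenitor marker *Mki67* as unchanged in villi, by qPCR and on the arrays. The summed signal of the 19 was 11.85, 12.32 and 12.33 (log2) on the control and 12.78, 12.81 and 12.84 on the mutant arrays. Of the 19, 18 were lowest on control replicate 1. The count of rises was 10 without control replicate 2 or mutant replicate 1 and 9 without mutant replicate 2 or 3. All 19 had mean signals of 6.29 or more. Their part in the values of ribosomal proteins and assembly factors was not tested. Of 12 markers of stroma, muscle and endothelium, 2 rose (16.7%, against 8.04% of all probe sets), *Dcn* by 1.03 and *Pdgfra* by 0.56. None of them fell, and 8 were lowest on control replicate 1. Their summed signal was 11.65 to 11.90 on the control and 11.93 to 12.16 on the mutant arrays. *Pdgfra* lost its call without mutant replicate 2 (adjusted p = 0.0637 from limma). Of 9 immune markers, *Itgam* rose by 0.83 and *Adgre1* fell by 0.54 (11.1% each, against 8.04% and 8.82% of all probe sets). Means below the array medians were found for 5 of the 9. Their summed signal was 10.69 to 11.05 in control and 10.70 to 10.84 in mutant villi. *Itgam* kept its call without mutant replicate 1 and lost it without any other 1 array (adjusted p up to 0.127, limma). Of 12 enterocyte markers, 3 rose (25%, against 8.04% of all probe sets) and 4 fell (33.3%, against 8.82%). Among all probe sets with a mean of 10 or more, where all 12 lie, 15% were called higher and 15.1% lower. The summed signal of the 12 was 16.86 to 16.88 in control and 16.80 to 16.83 in mutant villi. *Krt20* rose by 1.37, and *Lct* and *Fabp1* fell by 0.94 and 0.59. Without 1 array, 1 to 2 enterocyte markers rose and 2 to 4 fell. Neither of 2 erythroid markers passed, with a summed signal of 7.56 to 7.74 in control and 7.43 to 8.54 in mutant villi. *Alas2* differed by 0.43 (adjusted p = 0.453 from limma) and *Slc4a1* by 0.14 (adjusted p = 0.516 from limma). *Alas2* passed without mutant replicate 1 (0.86, adjusted p = 0.0216 from limma). The part of these cell types was not tested.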

How the data were processed

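Total RNA of villi was labelled with biotin and hybridised to Affymetrix whole-transcript arrays, 1 per sample, with 3 control and 3 mutant samples. The authors deposited 1 log2 value per probe set and array. How these were background-corrected, summarised and normalized is a detail not given in the sources used here. Values are relative within an array, so a change in total RNA or ribosome content per cell would not show. The arrays had nearly equal medians (6.24 to 6.3), and their number limits the precision.

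Of 30177 probe sets, the platform annotation gave 21789 a single symbol, 1621 several and 6767 none; 21698 symbols were updated through Entrez IDs in RefSeq. The 2 genotypes were fitted in limma 3.58.1 under R 4.3.3 (lmFit and eBayes, two-sided, no covariate) from the deposited log2 values. P-values were adjusted by Benjamini-Hochberg across the whole table. A gene is called at an adjusted p of 0.05 or less. With 3 arrays per genotype an exact permutation test cannot go below p = 0.1, so none is given for single genes. The procedure was tested on simulated data with independent normal errors, which hold no effect of a single array. No statement on changes of the size found here rests on that check. Lists are described by counts and medians without a test.

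Members and lists were chosen with earlier results of these data known. Named genes are all called members, the brightest and the dimmest member, *Rpl4*, the stalk proteins, *Rpsa*, *Rps6*, *Rpl5*, measured paralogs and their parents, *Fau* and *Rack1*, and up to 3 called genes of each other list, or 2 where none was called, with the largest difference. Of the genes that this rule selects, 1 is not reported here. Further genes were named after their values were seen. Alternatives were array weights, robust eBayes with a trend, the equal-variance test of Student, a block for the replicate number, quantile normalization, cyclic loess, centring on array medians, leaving out dim probe sets or those without a single symbol, an offset of 32 on the linear scale, the probe set with the lowest mean, and leaving out each array. Averaging control replicates 2 and 3 was added after seeing the data. Sequences are from RefSeq (GRCm38.p6). Python 3.11.15, pandas 2.3.3 and matplotlib 3.10.9 were used.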

Additional observations from a re-analysis of the deposited data

How the results depend on the processing

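The count of ribosomal protein genes called higher, 3, became 6 with trend and robust estimation, 6 with the replicate number as a block, 6 without dim probe sets, 5 among single-symbol probe sets, 5 with the offset of 32 and 1 with the test of Student, and 1 to 3 when an array was left out. The count called lower, also 3, became 1 with the test of Student, 0 to 1 when an array was left out and 0 with control replicates 2 and 3 averaged. Under median centring, 2 were called higher and 3 lower, and the medians of all probe sets moved by less than 0.1 under each scaling. The family's median difference stayed positive under all settings, from 0.01 without control replicate 1 to 0.13 without control replicate 3. Called assembly factors, 49 higher and 1 lower, became 13 higher with the test of Student, and 27 to 36 higher and 1 to 2 lower when an array was left out. Called translation factors, 5 higher and 0 lower, became 1 higher with the test of Student and 3 to 4 higher when an array was left out. Those called lower became 1 with trend and robust estimation, the block, quantile normalization, cyclic loess or single-symbol probe sets, 2 with array weights, median centring, the offset or without dim probe sets, and 0 to 1 when an array was left out. No difference changed sign while called. Same-numbered control and mutant arrays deviated from their group means with correlations of 0.17, 0.04 and 0.12. Replicates 1 and 3 correlated best with their own number, and replicate 2 did not. Over the ribosomal proteins alone the correlations were 0.34, 0.20 and 0.29. With 3 samples per genotype, these correlations cannot tell whether same-numbered samples shared a litter or batch, and the labels do not say. The block called *Rps2*, *Rpl8*, *Rpsa*, *Rps18*, *Rps19* and *Rpl27* higher and *Rpl28* and *Rplp0* lower. The cause of these changes was not tested.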
